A study of Caenorhabditis elegans with 24 samples.

Results

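The *pals* genes of *Caenorhabditis elegans* encode proteins with the ALS2CR12 signature, and the name stands for protein containing that signature. Members were taken as every gene whose name in the deposited tables begins with *pals-*, which gave 38 of 46926 listed genes. Their levels were compared between worms grown at 20 °C and at 26 °C.

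The study asked how FG repeats of germ granule helicases and the Argonaute protein WAGO-4 act in fertility at raised temperature, and it sequenced RNA depleted of ribosomal RNA from whole worms harvested as synchronized young adults. It holds 24 libraries in 8 groups, with 3 libraries for each of 4 genotypes at 20 °C and at 26 °C. Synchronization differed between the temperatures. For 20 °C, adults of a culture kept at 20 °C were bleached. For 26 °C, the parents were first staged as embryos at 20 °C and moved to 26 °C as larvae before bleaching. Growth temperature and this difference in preparation cannot be told apart. The worms called WT carried 3xFLAG::GFP::WAGO-4, a tagged WAGO-4 at its native locus, and are thus not untagged animals. The 3xFG worms carried the same tagged WAGO-4 with mutated FG repeats in the helicases GLH-1 and GLH-4 and a deletion of most FG repeats in GLH-2. The WAGO-4 KO worms lacked WAGO-4, and no tag is listed for them. The WAGO-4(Y611E) worms carried 3xFLAG::GFP::WAGO-4(Y611E), with a point mutation in the tagged protein. The labels do not say whether the libraries of a group came from separate cultures.

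The *pals* family is expanded in *C. elegans*, and many of its members belong to the intracellular pathogen response (IPR). This is a transcriptional programme induced by microsporidia and by the Orsay virus, which both infect the intestine, and also by prolonged heat stress. Several members are regulators of the programme rather than its targets: *pals-22* and *pals-17* repress it, and *pals-25*, *pals-16* and *pals-20* promote it. The biochemical activity of PALS proteins is largely unknown.

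The values used were the authors' mean normalized counts, in which counts are divided by a size factor for each library and averaged. There was a mean for 20 °C, a mean for 26 °C and a mean over both temperatures, each pooling all genotypes, so no value per library, no replicate error and no difference between genotypes could be given for any member. No test was therefore run, and "higher" or "lower" below describes these pooled means only. The lowest values of the means, which stand for 1 read in 1 library, showed how many libraries each mean pools. The means for 20 °C and 26 °C pool 18 libraries each, and the mean over both pools 24, of which 12 were found in each single-temperature mean. Each single-temperature mean thus also holds 6 libraries outside the 24, which could not be identified. The total count of each library is not given in the tables, so depth is unknown beyond the size factors. The size factors of the 24 libraries lay between 0.822 and 1.881 with a median of 0.986.

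For each gene the ratio of the 26 °C mean to the 20 °C mean was divided by the median ratio of all genes with a mean of at least 10 over both temperatures. A 2-fold ratio served as a descriptive threshold. Since the summed count over the 24 libraries is also known, the lowest and the highest ratio possible within those 24 could be computed for each gene, whatever the 12 other libraries hold. These bounds are on the scale of the mean over both temperatures, on which the median gene had a ratio of 1.07. They cover only how the counts can be shared among the libraries. Counting error and replicate error are not in them, so a narrow range is not a precise ratio.

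The *pals* genes were weakly detected at 20 °C and their summed level was higher at 26 °C. The 38 means at 20 °C added up to 414.7 normalized counts and those at 26 °C to 1192.8, a centred ratio of 2.72. Without *pals-6*, the member with the largest ratio, it was 2.36. At 20 °C 27 members had a mean above 0 and 14 a mean of at least 10, against 33 and 17 at 26 °C. No member was seen at 20 °C and listed at 0 at 26 °C. Of all 19985 protein-coding genes, 15.0% were listed at 0 at 20 °C and 10.2% at 26 °C. Fewer zeros at 26 °C were thus not particular to the family.

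**Figure D1:**
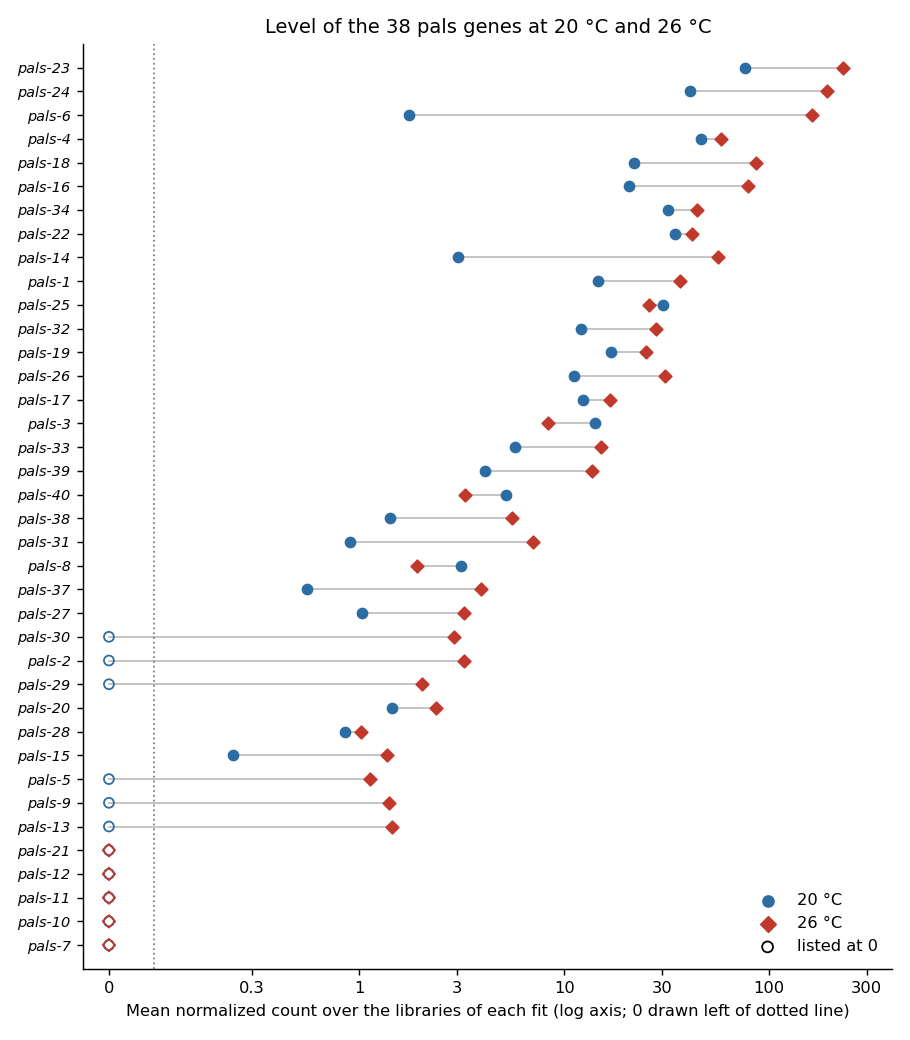
Mean normalized count (log axis) of each of the 38 *pals* genes at 20 °C (circles) and at 26 °C (diamonds), ordered by the mean over both temperatures, with open symbols for genes listed at 0. Most diamonds lie to the right of their circles, by the widest distance for *pals-6* among genes with both symbols filled, and 5 genes are at 0 at both temperatures.

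Of the 38 members, 16 reached a mean of 10 over both temperatures. Among these 16, 9 were at least 2-fold higher at 26 °C and 0 were at least 2-fold lower. Another 30 genes over the minimum were listed at 0 at 20 °C and have no ratio. Over the 14145 genes above the same minimum with a mean above 0 at both temperatures, 11.4% were at least 2-fold higher and 5.53% at least 2-fold lower. The median log2 ratio of the 16 members was 1.20, where that of all genes is 0 by construction. Of the 16, *pals-6* and *pals-14* had less than 10 at 20 °C and passed the minimum through 26 °C, and *pals-3* passed it through 20 °C. With a minimum of 10 at each temperature, 7 of 13 members were at least 2-fold higher, beside 7.94% of all genes.

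The stricter reading within the 24 libraries gave fewer members. For 5 of the 16, *pals-6*, *pals-14*, *pals-24*, *pals-18* and *pals-16*, the lowest possible ratio was at least 2, and for 0 the highest possible ratio was at most 0.5. Over the 14145 genes these shares were 4.31% and 1.23%. Of the 5, *pals-6* and *pals-14* passed the minimum mean only through 26 °C, the temperature at which they were higher. A minimum at each temperature was not applied to the bounds. The 5 of 16 and its background thus both admit genes that passed through a single temperature. Without any minimum, 32 members had counts in the 24 libraries. By the sums alone the pooled level of 21 of them was higher at 26 °C under every way of assigning the counts and that of 3 was lower. The same count over all genes was not made. This split therefore has no background and is not read as particular to the family. Of the 21, *pals-9* had 1.94 counts in all, below the 3 counts that a count of 0 allows, which leaves 20, and *pals-15* and *pals-27* rest on a single library at 20 °C. Of the other 8, *pals-28* was also lower once its reads at 20 °C were traced to 1 library of the series, and the direction of 7 was not fixed.

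**Figure D2:**
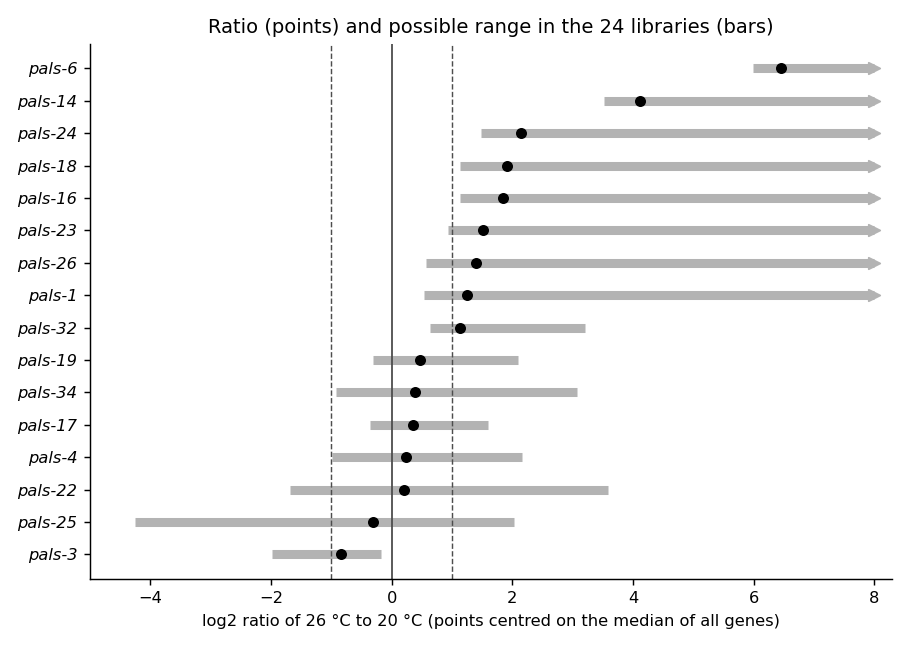
Log2 ratio of the 26 °C mean to the 20 °C mean for the 16 *pals* genes with a mean of at least 10 (points), with the range possible in the 24 libraries of the series (grey bars, where an arrow marks a bar with no upper end inside the axis). Dashed lines mark 2-fold. The bars of *pals-6*, *pals-14*, *pals-24*, *pals-18* and *pals-16* begin above 2-fold, and those of *pals-22* and *pals-25* span 0 widely.

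The widest ratio in the family was that of *pals-6*, an IPR member on chromosome I. Its mean was 1.75 at 20 °C and 162 at 26 °C, 87.4-fold higher. In the 24 libraries its summed level was at least 63.5-fold higher at 26 °C. Of the 14145 genes with a ratio, 7 had a larger one, and the 30 genes listed at 0 at 20 °C are left out of this rank. The 20 °C mean corresponds to 31.6 normalized counts summed over 18 libraries, so the denominator of this ratio rests on few reads.

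*pals-14*, whose product has been implicated in resistance to the microsporidian *Nematocida parisii*, had a mean of 3.05 at 20 °C and 56.2 at 26 °C. The ratio was 17.4-fold, and at least 11.5-fold in the 24 libraries, from 54.9 summed counts at 20 °C. A larger ratio was found in 62 of the same 14145 genes. *pals-6* and *pals-14* are neighbours on chromosome I, on opposite strands and 577 bp apart.

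Neither of the next members was close to 0 at 20 °C. *pals-24* had a mean of 41.0 at 20 °C and 191 at 26 °C, a 4.40-fold ratio that was at least 2.78-fold in the 24 libraries. *pals-23*, its neighbour, had the highest mean of the family at both temperatures, with 76.6 and 230.2 normalized counts not scaled to length. Its ratio was 2.84-fold and its lowest possible value in the 24 libraries 1.90. *pals-24* overlaps another gene on the opposite strand, and the strand setting used for counting is not given in the sources used here.

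*pals-18* had means of 21.8 and 86.7, a 3.75-fold ratio, and *pals-16* had means of 20.8 and 78.9, a 3.59-fold ratio. In the 24 libraries both were at least 2.19-fold higher at 26 °C. *pals-18* overlaps *pals-19* on the same strand, so reads from the shared stretch could be counted for either. *pals-19* itself had means of 16.99 and 25.02 and a ratio of 1.39, below the 2-fold threshold.

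Of the remaining members past 2-fold, *pals-26* had means of 11.2 and 31.1 and a ratio of 2.63. *pals-1* had 14.6 and 36.9 with a ratio of 2.39. *pals-32* had 12.1 and 28.2 with a ratio of 2.20. Their lowest possible ratios in the 24 libraries were 1.49, 1.45 and 1.56, so a higher pooled level at 26 °C held for each of them but a 2-fold one did not need to.

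The ratios of the pooled means of the regulators ran from 0.80 for *pals-25* to 3.59 for *pals-16*. *pals-22*, the repressor, had a mean of 34.6 at 20 °C and 42.1 at 26 °C, a ratio of 1.15. *pals-25*, the activator that is its neighbour on the same strand, had a mean of 30.4 at 20 °C and 25.8 at 26 °C, a ratio of 0.80. Neither ratio reached 2-fold.

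The sums over the 24 libraries left the direction open for this pair. The possible ratio ran from 0.31 to 12 for *pals-22* and from 0.052 to 4.07 for *pals-25*. The libraries outside the 24 held 39.9% and 42.1% of their summed counts, against 33.3% if all libraries contributed alike and a median of 32.7% over all genes above the minimum. A difference between temperatures in the 24 libraries was not detectable for this pair from these sums.

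*pals-17*, a repressor of the programme, had means of 12.4 and 16.8, a ratio of 1.27 with possible values from 0.78 to 3.01. *pals-16*, which promotes it and lies in the same chromosome III group, was 3.59-fold higher as given above. *pals-20*, the other activator of that group, had means of 1.44 and 2.36, below the minimum, and 34.1 normalized counts in all over the 24 libraries. Of the 5 regulators, *pals-16* was thus the only member past 2-fold in the pooled means. In the 24 libraries a 2-fold higher ratio remained possible for each of the others.

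*pals-5* supplies the promoter of the reporter most used for the IPR, and it was among the least detected members. It was listed at 0 at 20 °C and had a mean of 1.13 at 26 °C. Its 20.4 summed counts over both temperatures were all from 26 °C, and within rounding none came from the libraries outside the 24. No fold is given against a mean listed at 0.

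Members that did not reach 2-fold included some of the more abundant genes. *pals-4* had means of 46.7 and 57.9, a ratio of 1.17, and *pals-34* had 32.2 and 44.3, a ratio of 1.30. *pals-3* was the member above the minimum with the lowest ratio. Its mean was 14.1 at 20 °C and 8.37 at 26 °C, a ratio of 0.56, and in the 24 libraries the ratio lay between 0.25 and 0.88. *pals-3* overlaps *pals-12* on the same strand and *pals-4* on the opposite strand, and *pals-12* was listed at 0.

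The 38 genes lie on 4 chromosomes of the WBcel235 assembly, and 33 of them fall into 6 groups in which neighbours are at most 20000 bp apart. The largest group holds 14 members within chromosome I, 13083321 to 13144623. Its summed mean was 69.0 at 20 °C and 295.2 at 26 °C, 4.04-fold higher, and 8 of its members were listed at 0 at 20 °C. Within it *pals-4* and *pals-6* were above 50 at 26 °C together with *pals-14*, while *pals-7*, *pals-10*, *pals-11* and *pals-12* were at 0 at both temperatures.

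The group at the left end of chromosome III, 120435 to 137975, holds *pals-24*, *pals-23*, *pals-22* and *pals-25* in this order on the same strand. It made up 44.0% of the summed *pals* means at 20 °C and 41.0% at 26 °C. *pals-24* and *pals-23* are 87 bp apart, and *pals-22* and *pals-25* are 92 bp apart. The ratios of the pooled means were 4.40 and 2.84 in the first pair and 1.15 and 0.80 in the second. Such close spacing on the same strand is found in operons of *C. elegans*, in which several genes are transcribed as a single precursor. Whether these genes are transcribed together, and any link to their ratios, was not tested.

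The other chromosome III group with *pals-16* spans 1376945 to 1406263 and has 7 members. Its summed mean was 78.6 at 20 °C and 213.0 at 26 °C. *pals-18* and *pals-16* were past 2-fold, *pals-19* and *pals-17* were not, *pals-21* was at 0, and *pals-40* was lower at 26 °C. *pals-40* had means of 5.18 and 3.26, with a ratio in the 24 libraries between 0.56 and 0.67.

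Of the 38 genes, 23 overlap no other annotated gene. Besides the overlaps named above, *pals-26* overlaps a pseudogene on the same strand, and *pals-20*, *pals-32* and *pals-37* overlap genes on the opposite strand. *pals-13* overlaps the protein-coding gene *C17H1.2* on the same strand, and *pals-5*, *pals-8*, *pals-29* and *pals-30* overlap piRNA genes. The counts of these members are uncertain to that extent, since how shared reads were assigned is not given in the sources used here.

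**Figure D3:**
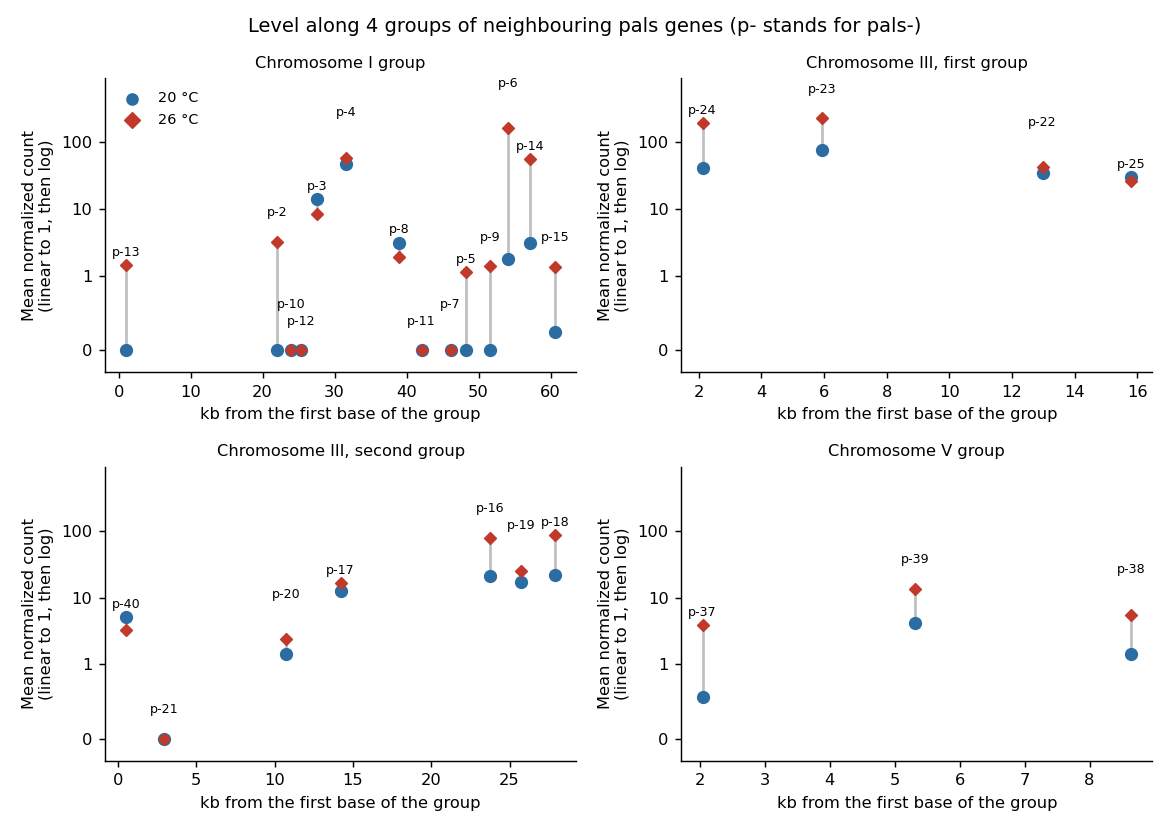
Mean normalized count of *pals* genes at 20 °C (circles) and 26 °C (diamonds) along the 4 position groups of 3 or more genes other than the *pals-26* group, at each gene's midpoint in kb from the start of the group. The y axis is linear up to 1 and logarithmic above. *pals-6* and *pals-14* stand side by side with wide gaps between temperatures, and *pals-22* and *pals-25* have narrow gaps beside *pals-24* and *pals-23*.

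The 22 members under the minimum mean were low in every pooled value. Of these, 16 had counts in the 24 libraries, with sums from 1.94 to 238.2 normalized counts. The chromosome V group of *pals-37*, *pals-39* and *pals-38* had summed means of 6.08 and 23.2. *pals-37* had means of 0.56 and 3.94, and nearly all of its counts were in the 24 libraries, where its ratio lay between 6.99 and 7.21. *pals-39* had 4.11 and 13.7, with a ratio of at least 1.96 in the 24 libraries, and *pals-38* had 1.41 and 5.55, with a ratio of at least 3.05.

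*pals-31*, a lone member on chromosome V, had means of 0.90 and 7.08 and a ratio of at least 4.20 in the 24 libraries. *pals-33* had 5.73 and 15.1. *pals-8* was lower at 26 °C, with 3.14 and 1.91 and a ratio in the 24 libraries between 0.46 and 0.71. Together with *pals-3* and *pals-40* it makes up the 3 members whose sums alone fix a lower pooled level at 26 °C in the 24 libraries.

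For some of the least detected members, all reads at a temperature came from a single library. The 20 °C mean of *pals-27* equals 17 reads in 1 library, that of *pals-28* 14 reads in 1 library and that of *pals-15* 4 reads in that same library, and each of these is among the 24. Each of these means is a whole multiple of the value of 1 read in that library, to the precision of the tables. The ratios of these 3 genes therefore rest on a single library at 20 °C. With those reads placed in the 24 libraries, the ratio there lay between 0.48 and 0.53 for *pals-28*, against 1.13 for its pooled means. It lay between 2.16 and 2.25 for *pals-27* and between 4.16 and 4.31 for *pals-15*.

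Listed at 0 at 20 °C and above 0 at 26 °C were 6 members. Besides *pals-5*, *pals-2* had a mean of 3.24 at 26 °C, *pals-30* 2.90, *pals-29* 2.03, *pals-13* 1.44 and *pals-9* 1.40. *pals-29* and *pals-30*, neighbours on chromosome IV, had within rounding no counts outside the 24 libraries. The opposite held for *pals-9* and *pals-13*, whose counts at 26 °C lay wholly or almost wholly outside them. A count of 0 allows a summed level of up to 3 counts in each fit, for counting error only.

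Per length of transcript the family sat in the middle or lower part of the range of protein-coding genes. Transcripts of members were 277 to 2719 nt long. Per kb, *pals-23* was highest at 20 °C, at the 53.7 percentile of 19985 protein-coding genes, and *pals-24* was highest at 26 °C, at the 63.5 percentile. At 20 °C 2 members exceeded the median protein-coding gene per kb, and at 26 °C 5 did.

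The summed level was held by a few members. *pals-23*, *pals-4*, *pals-24* and *pals-22* held 47.9% of the summed means at 20 °C. At 26 °C the 4 leading members were *pals-23*, *pals-24*, *pals-6* and *pals-18*, with 56.2%. In these counts, which are not scaled to length, *pals-6* and *pals-18* took the places of *pals-4* and *pals-22*. Per kb of transcript the leading members differed. They were *pals-23*, *pals-34*, *pals-24* and *pals-22* at 20 °C, with 48.7% of the summed levels per kb. At 26 °C they were *pals-24*, *pals-23*, *pals-6* and *pals-16*, with 55.5%.

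Of 19 partner genes of the IPR outside the family, 15 reached the minimum mean. Of these, 7 were at least 2-fold higher at 26 °C and 0 were at least 2-fold lower, beside the 11.4% and 5.53% of all genes given above. Their median log2 ratio was 0.96. With a minimum of 10 at each temperature, 3 of 11 were at least 2-fold higher, beside 7.94% of all genes at that minimum, since several had means under 10 at 20 °C. In the 24 libraries the lowest possible ratio was at least 2 for 6 of the 15, beside 4.31% of all genes. Of these 6, *sdz-6*, *fbxa-158*, *B0507.6* and *skr-5* passed the minimum mean only through 26 °C.

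Among partners above the minimum, the largest ratios were those of genes that were low at 20 °C. Below the minimum, *F26F2.3* had means of 0.39 and 4.03, a 9.72-fold ratio. *sdz-6* had means of 3.76 and 101.5, a 25.5-fold ratio. *fbxa-158*, which encodes an F-box protein, had 2.65 and 55.9, a 19.9-fold ratio. *B0507.6* had 3.30 and 27.2, a 7.77-fold ratio, and *eol-1* had 11.1 and 50.6, a 4.31-fold ratio. *B0507.8*, also above the minimum, had 15.5 and 16.9, a ratio of 1.03. Of the partners below the minimum, *F26F2.1* had 2.34 and 8.63, a 3.48-fold ratio, and *F26F2.4* was listed at 0 in all pooled means.

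The SKR proteins, Skp1-related subunits, form a ubiquitin ligase with the cullin CUL-6 in the IPR. *skr-4* had means of 130.3 and 519.1, a 3.76-fold ratio, *skr-5* had 4.11 and 17.9, a 4.10-fold ratio, and *skr-3* had 297.2 and 644.7, a 2.05-fold ratio. *rcs-1*, the RING subunit of that ligase, had a ratio of 1.95 and *cul-6* of 1.52, both below the threshold. In the 24 libraries the ratio of *rcs-1* was at least 1.02 with no upper limit. That of *cul-6* lay between 0.77 and 9.40. *fbxa-75*, another F-box subunit, was listed at 0 in all pooled means.

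Upstream regulators did not reach 2-fold in the pooled means. *zip-1*, a bZIP transcription factor of the IPR, had a ratio of 1.86, and *drh-1*, a RIG-I-like sensor of viral RNA, had a ratio of 0.79. *lin-35* and *pnp-1*, which keep the programme off, had ratios of 0.76 and 1.09. In the 24 libraries the ratio lay between 0.97 and 132.7 for *zip-1* and between 0.22 and 2.15 for *drh-1*. It lay between 0.21 and 1.97 for *lin-35* and between 0.41 and 4.27 for *pnp-1*. *chil-27*, a chitinase-like gene also induced by oomycetes, was the partner with the lowest ratio. It had means of 34.7 and 22.5, a ratio of 0.61, and in the 24 libraries the ratio lay between 0.36 and 0.89.

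**Figure D4:**
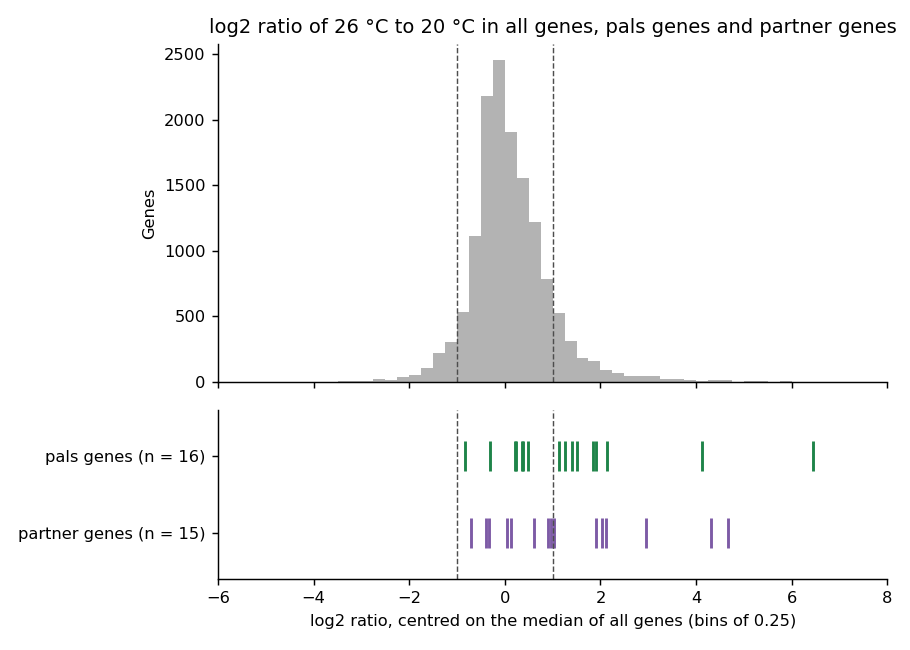
Number of genes by log2 ratio of 26 °C to 20 °C in bins of 0.25 over genes with a mean of at least 10 (top; 2 genes lie beyond the axis), and the ratios of the 16 *pals* genes and 15 IPR partner genes above the same minimum (bottom, a tick per gene). Dashed lines mark 2-fold, and 9 *pals* and 7 partner ticks lie to the right of the upper line.

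Other large gene families also had more members past 2-fold than the background. Of 103 *clec-* genes above the minimum, which encode C-type lectin domain proteins, 41 (39.8%) were at least 2-fold higher at 26 °C and 9 lower, with a median log2 ratio of 0.66. Of 89 *fbxa-* genes, which encode F-box proteins, 32 (36.0%) were higher and 4 lower, with a median of 0.81. The *pals* median of 1.20 was above both, but with no replicate error no difference between families was tested.

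Whole-worm RNA pools tissues, so fewer cells of a type and less RNA per cell cannot be told apart. All 16 markers fixed for 7 cell types reached the minimum mean. Among intestinal markers, *act-5* had a ratio of 0.76, *elt-2* of 1.14 and *ges-1* of 1.88. The hypodermal collagen genes *dpy-7* and *rol-6* had ratios of 2.33 and 3.13, with lowest possible values of 0.81 and 2.72 in the 24 libraries, and the sperm gene *msp-3* had means of 1209.6 and 408.3, a ratio of 0.32. The other markers had ratios between 0.66 and 1.57. The part of these differences in the *pals* ratios was not tested.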

How the data were processed

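The authors sequenced RNA from whole worms after ribosomal RNA depletion with a directional library kit, processed reads with a pipeline based on nf-core/rnaseq and fitted DESeq2. The build in the submitters' processing notes is WBcel235, and the aligner, counter and versions are not given in the sources used here. The signal used is the mean normalized count that the authors deposited in 10 tables of 3 fits, a pooled value with 0 columns of per-sample values. The other columns hold the authors' own comparisons (log2 fold changes, standard errors, statistics and p-values) and were not used, so mutants could not be compared with WT.

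Libraries per fit were counted from the distinct lowest values that recur, each standing for 1 read in 1 library. This count and the centring were tried on simulated data. The bounds were also computed there, but the simulation used the same scale in every fit. They held by construction, so the simulation does not test them on fits with differing scales. Positions and lengths came from the Ensembl release 115 annotation, in which all 46926 identifiers were found. Python 3.11.15, pandas 2.3.3 and numpy 2.4.6 were used.

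All members were to be named, in full the 10 with the highest mean over both temperatures, those past 2-fold, the known regulators, *pals-5* and *pals-14*, with a list of IPR partners. The members and lists were chosen with earlier results of these data known. Protein identity and promoter motifs were planned and were not analysed here. The alternatives were other scalings, minimum means of 1 and 50, a pseudocount of 1 and length scaling. The bounds, the minimum at each temperature, a scaling by the value of 1 read and the coding length of the annotation were chosen after seeing the data.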

Additional observations from a re-analysis of the deposited data

Results flagged for a closer look

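*pals-9* and *pals-13* carried counts in libraries outside the 24, which enter no comparison within the series. At 26 °C, *pals-9* had 25.2 summed normalized counts over the 18 libraries of that fit, of which 1.94 lay in the 24 libraries, equal to 2 reads in 1 library. *pals-13* had 26.0 summed normalized counts at 26 °C and 0 in the 24 libraries. The value of *pals-13* equals 32 reads in 1 library. *pals-13* overlaps *C17H1.2* on the same strand, so these reads could belong to either gene. Both genes were listed at 0 at 20 °C. The identity of the libraries outside the 24 is not known, and no reason for these counts was tested.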

How the results depend on the processing

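No paired analysis was possible because the tables hold no value per library, and for the same reason leaving out each replicate could not be run. RefSeq coding lengths were not run. The count of 9 *pals* genes past 2-fold, all higher at 26 °C, became 15 of 25 with a minimum mean of 1 (background 17.2%) and 5 of 6 with a minimum of 50 (background 6.32%), since fewer or more genes enter. Of these 5, *pals-6*, *pals-16*, *pals-18* and *pals-24* had means under 50 at 20 °C and passed that minimum through 26 °C. The larger share at this minimum is therefore not read as a stronger result. The count of 9 became 5 of 16 when the bounds over the 24 libraries were used. That 5 of 16 includes *pals-6* and *pals-14*, which passed the minimum mean only through 26 °C. The 7 partner genes became 2 of 8 with a minimum of 50, 3 of 11 with a minimum of 10 at each temperature and 6 of 15 with the bounds. All 16 members kept their direction and their side of 2-fold under 4 other scalings and a pseudocount of 1. The partner count lay between 7 and 9 there. The scaling to equal sums moved the log2 ratio of the median gene by 0.18, the most of the 4. All 4 scalings raised every ratio, so under them no member past 2-fold could fall below it. What limits every value is that libraries and genotypes are pooled, that 6 libraries of each single-temperature mean are unknown, and that ratios of *pals-6* and *pals-14* rest on few counts at 20 °C.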
